A study of Mus musculus with 16 samples.

Results

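The difference between testosterone propionate (TP) and estradiol (E2) was compared between the efferent duct, whose narrow tubules lead sperm and fluid out of the testis, and the caput, where the epididymis begins. For each tissue the difference is TP minus E2 on the log2 scale of intensity, so a positive value means a higher level after TP. Genes were included when the mean intensity of all 4 hormone groups was above 16, which held for 11682 of the 18193 genes with a probe set of a single symbol (64.2%). These are called the members. A difference was called shared or split from the mean of both tissues' differences, from their interaction (efferent duct difference minus caput difference) and from their agreement across genes. Adult male 129BL/6 mice had been castrated and left for 14 days, then injected with 0.015 mg TP or 0.015 mg E2 in 100 µL of 10% ethanol in sesame oil, and tissue was taken 12 hours later. Every hormone animal was thus castrated. The study also held castrated animals given vehicle alone and sham-operated animals given vehicle. Both entered the fits, and the castrated vehicle arrays served as a background level in the caput. Each tissue had 2 arrays per group, so 8 of the 16 arrays carried a hormone group. Efferent duct RNA (50 ng) was labelled with the Ovation system and caput RNA (10 µg) with the One-Cycle kit, so tissue and labelling cannot be told apart in the interaction.

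Androgens and estrogens act through steroid receptors, ligand-activated transcription factors that bind DNA in the nucleus. Epithelial cells of the efferent duct carry much estrogen receptor alpha and reabsorb most of the fluid leaving the testis, while the caput epithelium depends on androgen and secretes proteins that coat and mature sperm. TP is an ester of testosterone that is cleaved in the body. Testosterone can be converted to dihydrotestosterone and also, by aromatase, to estradiol.

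The marker sum of each tissue was higher in that tissue, with some caput marker signal on efferent duct arrays. Summed over 6 efferent duct epithelium markers, intensity was 3002 and 4429 on the TP arrays and 2731 and 2949 on the E2 arrays of the efferent duct, against 1275 and 1676 and then 1745 and 1584 in the caput. Summed over 7 caput epithelium markers, it was 13419 and 18564 after TP and 7583 and 5006 after E2 in the caput, and 2798 and 353 after TP and 127 and 810.2 after E2 in the efferent duct. The first TP array of the efferent duct thus had the highest caput marker sum of the hormone arrays of that tissue, and the second E2 array the next highest. Gpx5, a glutathione peroxidase secreted by the caput, was at 676 and 18.4 on the TP arrays and 61.3 and 448 on the E2 arrays of the efferent duct. Some of the 7 markers were not particular to the caput. On sham arrays Spink10 was at 2535 and 2052 in the efferent duct and at 2478 and 2578 in the caput. The first sham array of the efferent duct had Adam7 at 1381 and Lcn5 at 1393, with Gpx5 at 27.3. The sum can therefore not be read as caput tissue alone. Adipocyte markers (13 genes, 2 of them at or below 16 on every caput hormone array) summed in the caput to 2371 and 2338 after TP, against 4678 and 9024 after E2. Fewer cells of a type and less RNA per cell cannot be told apart in such tissue. The number of arrays limits the precision: the median 95% interval of a member was the difference ± 0.62 in the efferent duct, ± 0.43 in the caput, ± 0.35 for the mean of both and ± 0.70 for the interaction. Whether replicates are separate animals is not stated in the labels, so the p-values cover the spread between these samples alone, which may be technical.

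TP and E2 set genes apart in both directions. In limma's test of the mean difference, 257 members were higher with TP and 189 higher with E2 at an adjusted p under 0.05, beside 1.63% and 1.42% of all 18193 genes tested. Of those 446, 436 had the same sign in both tissues, a share that a test of the mean favours by its construction and that supports nothing by itself. The other 10 were Bid, Cacna1c, Cks1b, Ctxn1, Ern1, Gng4, Hk2, Irak1, Mapk10 and Suco. A stricter set of 403 members passed that test and also had TP and E2 arrays that did not overlap in either tissue. Of these, 235 were higher with TP and 168 higher with E2, beside 1.45% and 1.25% of all genes tested. With any single hormone array left out, 226 to 300 members passed the mean test. Fitted on the 8 hormone arrays alone the test passed 182, and with an intensity trend in the variance prior 794.

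The differences of single tissues were tested in separate fits of 8 arrays each, while the mean was tested in 1 model of 16 arrays. In the efferent duct 0 members passed limma's test (smallest adjusted p = 0.0745). An unadjusted p under 0.05 was found for 774 of the 11682 members, beside 1467 of all 18193 genes, and no weight is put on that count. In the caput 165 members were higher with TP and 136 higher with E2, beside 1.12% and 1.00% of all genes tested. Those caput counts rested on all 4 hormone arrays, since 0 to 3 members passed with any 1 of them left out. No member was called in both of these fits. In the model of 16 arrays 91 members passed in the efferent duct, as against 370 in the caput, 48 of them in both tissues in the same direction. These counts were made over the members alone, so no share of all genes stands beside them and no weight is put on them. The interaction passed the threshold for 5 members, 4 with the efferent duct difference above the caput difference (0.0330% of all genes) and 1 with it below (0.0165%).

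Agreement depended on the size of the difference. Over all 11682 members the 2 differences had a Pearson r of 0.382 and a Spearman rho of 0.226, as a description, since all genes share the same arrays and are not independent. Over all 18193 genes r was 0.151. Members had the same sign in both tissues in 55.8% of cases (6518). Among the 690 with both differences at least 0.5 in size the share was 82.2%, and among the 141 with both at least 1 it was 92.2%. Of the 44 with both at least 1.5, 43 shared their sign, H2-DMb2 being the other one, and so did all 17 with both at least 2. Single pairs of arrays set the scale for these correlations. Within the efferent duct, the difference of 1 TP and E2 pair correlated with that of the other pair at 0.307 and 0.268, depending on how arrays were paired. Within the caput the same values were 0.587 and 0.528. Between tissues, the 16 correlations of single pairs ran between 0.220 and 0.357, so that they overlapped the values within the efferent duct and lay below those within the caput.

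**Figure D1:**
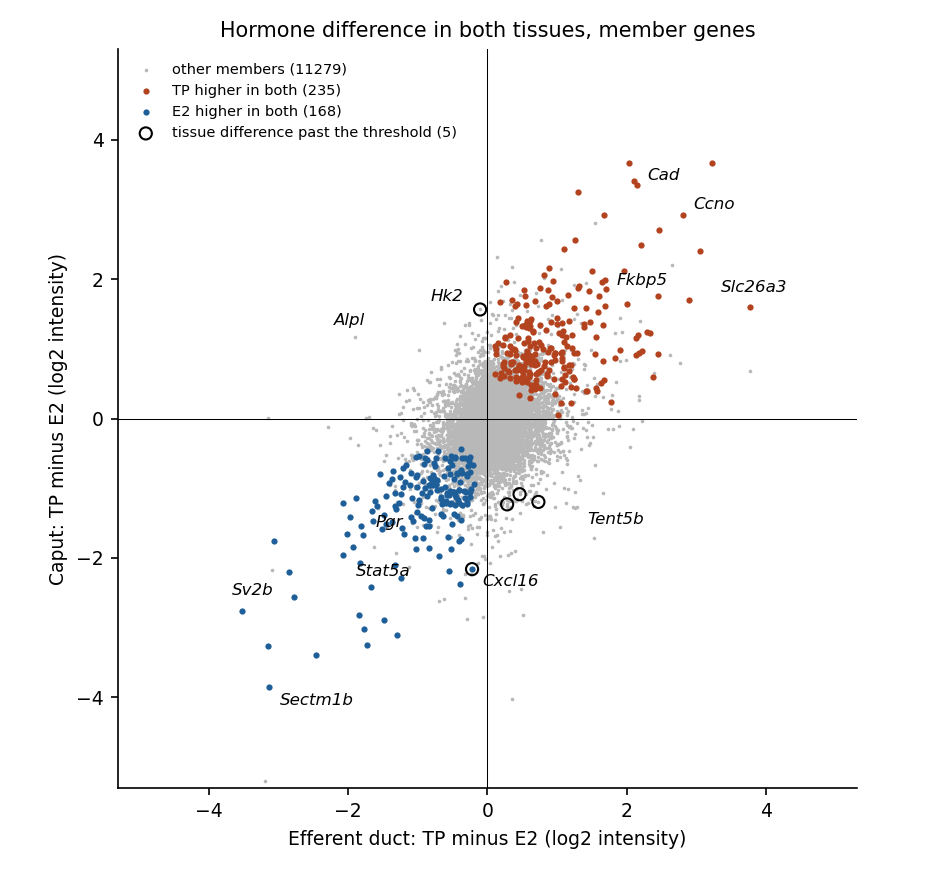
TP minus E2 in log2 intensity for each of the 11682 members, in the efferent duct (horizontal) and the caput (vertical). Red points are the 235 members higher with TP and blue points the 168 higher with E2 in both tissues, and open circles mark the 5 past the interaction test. The coloured points lie at the lower left and upper right, and 4 of the 5 circled genes lie below the centre.

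The 10 shared genes higher with TP that had the largest differences held enzymes and secreted proteins, among others. Cad, the enzyme that starts pyrimidine synthesis, stood at 671 and 551 on the TP arrays and 144 and 130.2 on the E2 arrays of the efferent duct, and at 1902 and 2047 after TP and 235 and 158 after E2 in the caput. The hormone arrays lay far apart in both tissues. The differences were 2.15 (SE 0.22) in the efferent duct as against 3.36 (SE 0.20) in the caput, with an adjusted p of 0.000143 for their mean. Mthfd2, a mitochondrial enzyme of the folate cycle that feeds purine synthesis, stood at 598 and 579.7 after TP and 127 and 180.1 after E2 in the efferent duct. In the caput it was at 1205 and 1096 after TP and 209 and 338 after E2. Its differences of 1.96 and 2.11 were of like size (adjusted p of the mean 0.000486; interaction -0.15, 95% interval -0.90 to 0.60). Ccno, a cyclin-family protein needed to build the many centrioles of multiciliated cells, was at 200.1 and 109 after TP and 15.6 and 28.5 after E2 in the efferent duct. In the caput, where few cells are ciliated, it was at 401 and 369 after TP and 52.7 and 49.2 after E2. Both tissues thus showed about the same ratio, with differences of 2.81 and 2.92 (adjusted p of the mean 0.000593).

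Fkbp5, a co-chaperone of steroid receptors and a textbook androgen-induced gene, stood at 740.5 and 790.4 after TP and 256 and 217 after E2 in the efferent duct. In the caput it was at 1819 and 1717 after TP and 503 and 473 after E2. The differences were 1.70 (SE 0.29) and 1.86 (SE 0.12), and the adjusted p of the mean was 0.000728. It is 1 of the genes whose probe sets disagreed: with the mean of its 3 probe sets in place of the brightest, the adjusted p was 0.506. Slc26a3, an exchanger of chloride for bicarbonate, had the largest shared difference in the efferent duct among the members named here, 3.76 (SE 0.60). Its values there were 741 and 1147 after TP and 60.9 and 75.6 after E2, and in the caput 686 and 664 after TP and 233 and 212 after E2 (difference 1.60; adjusted p of the mean 0.00324). The interaction of 2.16 had a 95% interval of 0.65 to 3.67 and did not pass (adjusted p = 0.349).

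Asb11, which recruits substrates to a ubiquitin ligase, had differences of 2.46 and 2.71 (adjusted p of the mean 0.00815). For Adcy8, a calcium-stimulated adenylyl cyclase, they were 3.06 and 2.41 (0.0122), for Clic3, an intracellular chloride channel protein, 2.20 and 2.49 (0.0217), and for Prom2, a glycoprotein of membrane protrusions, 2.45 and 1.76 (0.0126). With its probe sets averaged, Prom2 did not pass (adjusted p of the mean 0.0573), nor did it with the 8 hormone arrays alone (0.0938). Adam7, Eppin and Lcn12, of the same 10, are proteins of the caput epithelium and its secretion, although most of the 15 listed caput secreted proteins, described with the lists, passed no test. Adam7, an ADAM-family protein on caput cell membranes, was at 1007 and 105 after TP and 13.8 and 88.6 after E2 in the efferent duct, and at 5300 and 6705 after TP and 449.7 and 492 after E2 in the caput. Adam7 is itself 1 of the 7 genes of the caput marker sum, so its level and that sum are not independent. In the efferent duct, its highest hormone value and the highest sum were both on the first TP array. Without that array the adjusted p of the mean was 0.0727, against 0.0384 with it, and leaving out single arrays other than the second efferent duct E2 and TP arrays gave 0.0727 to 0.12. Eppin, a protease inhibitor that binds to sperm, was at 429 and 75.4 after TP and 24.8 and 70.3 after E2 in the efferent duct, and at 1780 and 1782 after TP and 174 and 160.0 after E2 in the caput. The lipocalin Lcn12 was at 152 and 35.7 after TP and 13.9 and 23.5 after E2 in the efferent duct, and at 366 and 413 after TP and 38.1 and 24.7 after E2 in the caput. Both of these, too, were highest in the efferent duct on its first TP array, and the part of the caput marker signal in this was not tested. Their adjusted p values of the mean were 0.0189 and 0.00731, that of Eppin between 0.0587 and 0.0666 without any 1 caput hormone array or the first efferent duct E2 array. Clic3 did not pass without any 1 of 6 arrays either (adjusted p 0.05 to 0.0823), nor did Prom2 without the second caput E2 or the first caput TP array (0.0528 and 0.0516).

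Shared genes higher with E2 included transcription factors, signalling proteins and a retinol enzyme. Stat5a, a transcription factor that prolactin, growth hormone and cytokines activate, was at 379 and 306 after TP and 1397 and 1471 after E2 in the efferent duct, and at 209 and 150.2 after TP and 661 and 719 after E2 in the caput. Its differences of -2.07 (SE 0.24) and -1.96 (SE 0.29) were nearly equal, with an interaction of -0.11 (95% interval -0.95 to 0.73) and an adjusted p of the mean of 0.00102. Pgr, the progesterone receptor and the classical estrogen-induced gene of the uterus, was at 57.8 and 77.7 after TP and 201 and 264 after E2 in the efferent duct. In the caput it was at 25.1 and 30.1 after TP and 72.9 and 105 after E2. The differences were -1.78 and -1.67, with an adjusted p of the mean of 0.00147, or 0.0945 with the mean of its 3 probe sets. Lrat, which esterifies retinol for storage, was at 51.4 and 83.7 after TP and 379 and 585 after E2 in the efferent duct, and at 41.8 and 50.6 after TP and 184 and 243 after E2 in the caput (differences -2.84 and -2.20; adjusted p of the mean 0.000428).

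Sectm1b, of the Sectm1 family of secreted and transmembrane immune proteins, had the smallest adjusted p of the efferent duct test, 0.0745. It was at 57.3 and 70.4 after TP and 506 and 609 after E2 in the efferent duct, and at 23.3 and 42.7 after TP and 522 and 396 after E2 in the caput. Its differences of -3.13 and -3.85 gave an adjusted p of the mean of 0.000162. Sv2b, a glycoprotein of synaptic vesicles, was at 26.3 and 42.0 after TP and 312 and 464 after E2 in the efferent duct, and at 32.9 and 27.6 after TP and 205 and 205 after E2 in the caput. The arrays of both genes were clear of each other in both tissues. The differences of Tmem213 were -3.15 and -3.26 (adjusted p of the mean 0.000345), those of Il18bp, a soluble protein that captures interleukin-18, -2.78 and -2.56 (0.000352), and those of Adamts4, a protease of cartilage proteoglycan, -2.45 and -3.40 (0.00105). Slc1a5, a transporter of glutamine and other neutral amino acids, had -1.85 and -2.82 (0.0158), and it did not pass without 1 of 4 arrays (0.0513 to 0.0645 without the first efferent duct E2, the second efferent duct TP, the first caput E2 or the second caput TP array). Nrtn, the growth factor neurturin, had -1.92 and -1.84 (0.00957), and Trabd2b, a membrane protease that cleaves Wnt proteins, -1.83 and -2.07 (0.00452).

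**Figure D2:**
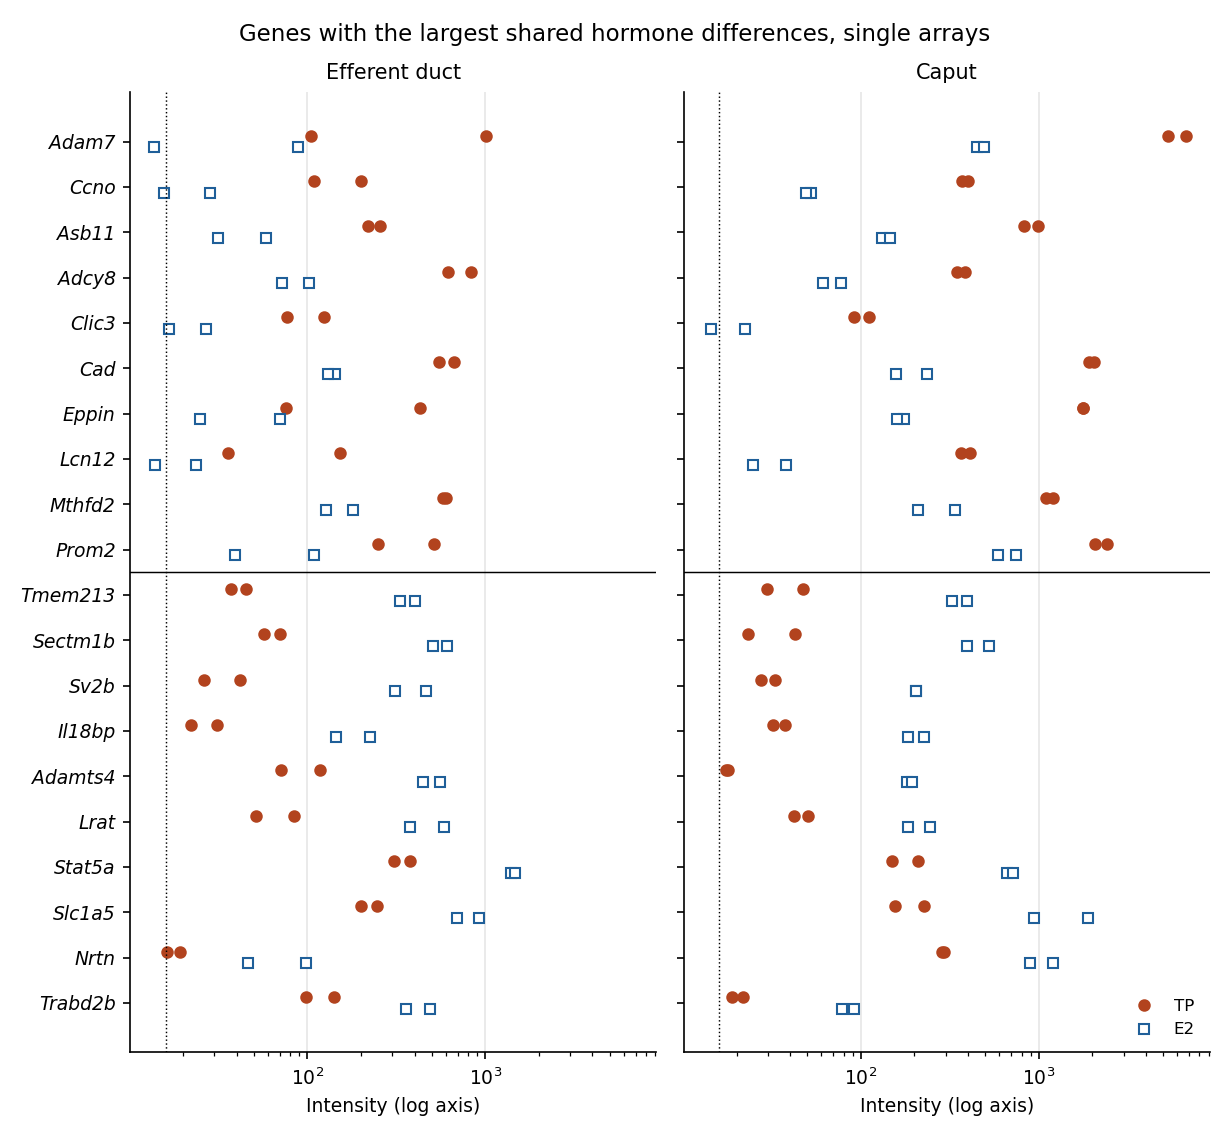
Intensity (log axis) of the 10 shared genes with the largest differences in each direction, efferent duct left and caput right, 1 point per array. Filled circles are TP arrays, open squares E2 arrays, and the dotted line marks an intensity of 16. The TP arrays lie right of the E2 arrays for the upper 10 genes and left of them for the lower 10 in both tissues, most narrowly for Adam7 and Eppin in the efferent duct.

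Shared genes covered a range of sizes. Of the 235 higher with TP, 51 differed at least 2-fold in both tissues, and of the 168 higher with E2, 46 did. The median difference of the first set was 0.76 in the efferent duct as against 0.94 in the caput, and that of the second -0.80 and -1.11. These medians describe members chosen for their differences and test nothing. The efferent duct difference was the larger for 85 of the 235 and 49 of the 168. Only Cxcl16 among the 403 also passed the interaction test. For the others the median 95% interval of the interaction, without adjustment, was about ± 0.65 (TP) and ± 0.69 (E2). The adjusted test was stricter: the smallest interaction of a member that passed was 1.51, that of Bid. Not passing it therefore does not show that the differences were alike in both tissues.

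The castrated vehicle arrays of the caput showed on which side of the background the 2 hormones lay. This was not done for the efferent duct, whose castrated arrays had an actin 3' over 5' ratio of 3.11 and 3.87 (log2), against 0.913 to 1.93 on its hormone arrays. Its sham arrays were at 3.18 and 3.13. These castrated and sham arrays still entered the spread in the efferent duct, mean and interaction tests, which limits those counts. Of the 235 shared genes higher with TP, the castrated caput mean lay between the hormones for 143, below both for 81 and above both for 11, and TP lay farther from castrated than E2 did for 193. Of the 168 higher with E2, it lay between for 119, below both for 28 and above both for 21, and E2 lay farther for 101. Cad was at 135 and 133 in castrated caput, and Fkbp5 at 602 and 557, near its level after E2. Stat5a was at 177 and 116, with its mean below those after both hormones, and Sectm1b at 84.2 and 70.7, between both hormones. Pgr was at 35.1 and 52.2, and Lrat at 46.6 and 48.4. With 2 arrays per group these positions are descriptions and were not tested.

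To show the sequence at the start of such genes, 250 bases before the transcription start were read from RefSeq (build GRCm38.p6) for 4 shared genes with unlike directions. They were searched on both strands for TGTTCT, which reads AGAACA on the other strand, the core hexamer of androgen and glucocorticoid response elements, for AGGTCA, which reads TGACCT on the other strand, that of estrogen receptor elements, and for the E-box CACGTG. Overlapping matches were allowed. Slc26a3 and Fkbp5 were higher with TP, Lrat and Stat5a higher with E2. The windows are chr12:31437969-31438218 (plus strand) for Slc26a3, chr17:28486150-28486399 (minus strand) for Fkbp5, chr3:82903975-82904224 (minus strand) for Lrat and chr11:100859406-100859655 (plus strand) for the first of both Stat5a windows. Capitals mark any of these hexamers, and the sequences run 5′ to 3′ on the gene's strand.
Slc26a3: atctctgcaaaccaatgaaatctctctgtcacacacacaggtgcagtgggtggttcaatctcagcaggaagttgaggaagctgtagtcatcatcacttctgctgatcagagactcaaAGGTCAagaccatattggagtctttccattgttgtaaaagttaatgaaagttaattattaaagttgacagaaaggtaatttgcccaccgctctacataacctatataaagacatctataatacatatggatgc
Fkbp5: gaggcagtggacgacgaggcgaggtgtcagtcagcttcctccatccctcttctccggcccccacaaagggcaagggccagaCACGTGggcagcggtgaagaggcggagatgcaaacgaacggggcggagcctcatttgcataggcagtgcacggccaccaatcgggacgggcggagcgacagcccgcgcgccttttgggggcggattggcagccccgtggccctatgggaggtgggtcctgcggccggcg
Lrat: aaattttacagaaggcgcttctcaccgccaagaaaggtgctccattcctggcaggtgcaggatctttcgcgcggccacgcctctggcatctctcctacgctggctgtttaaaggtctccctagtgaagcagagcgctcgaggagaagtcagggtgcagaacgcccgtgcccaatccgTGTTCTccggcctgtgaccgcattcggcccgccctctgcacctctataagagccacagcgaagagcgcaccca
Stat5a: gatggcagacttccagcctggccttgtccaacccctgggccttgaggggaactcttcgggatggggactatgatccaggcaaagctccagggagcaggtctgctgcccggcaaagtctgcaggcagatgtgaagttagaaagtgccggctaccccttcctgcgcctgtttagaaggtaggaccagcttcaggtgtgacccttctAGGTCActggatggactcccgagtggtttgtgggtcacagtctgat
AGGTCA or its complement stood in the window of Slc26a3 and in both windows of Stat5a, CACGTG in that of Fkbp5, and TGTTCT or its complement in that of Lrat. Over all shared genes the shares were of like size in both directions. Windows were found for 191 of the 235 genes higher with TP and 133 of the 168 higher with E2. TGTTCT or its complement stood in 10.9% and 11.2% of their windows, against 10.8% over 9458 members and 16.1% over all promoters of the table. AGGTCA or its complement stood in 11.3% and 12.2%, against 10.6% and 14%, and CACGTG in 8.91% and 9.04%, against 8.18% and 6.02%. A match is a string of letters and not a binding site, and steroid receptors often bind far from these windows.

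Members called in the caput were looked up in the efferent duct, whose arrays had no part in that call. The first efferent duct TP array had a caput marker sum of 2798. The second TP array had 353 and the E2 arrays 127 and 810. The part of that signal in this look-up and in the reverse one was not tested. Of the 165 higher with TP in the caput, 148 (89.7%) were also higher with TP in the efferent duct, where 59.2% of all members had a positive difference. Their efferent duct arrays did not overlap in the same direction for 111, did not overlap in the opposite direction for 4 and overlapped for 50. Over all members, efferent duct arrays stood apart with TP higher in 27.4%. Of the 136 higher with E2 in the caput, 108 (79.4%) had the same sign in the efferent duct, where the arrays stood apart in that direction for 77 and in the opposite one for 11, against 14.6% of all members with E2 higher. The differences were smaller in the efferent duct: medians were 0.58 against 1.26 in the caput for the first set, and -0.42 against -1.28 for the second. The caput medians are of genes chosen for their caput values, so the comparison of sizes is a description. Intensity ranges differed too. The highest value was 3218 to 4517 on the efferent duct hormone arrays and 8603 to 12111 on those of the caput. The part of this in the sizes was not tested. At least 2-fold in the caput were 124 and 115 of these genes, and 41 and 56 of them had a log2 difference below 0.5 in size in the efferent duct. The reverse look-up used the members with an unadjusted p under 0.001 in the efferent duct, 19 higher with TP and 15 higher with E2. All 19 higher with TP had the same sign in the caput, 15 with arrays apart, and so had 14 of the 15 higher with E2, all 14 with arrays apart. Over all 11682 members the caput difference was positive for 5248, and caput arrays stood apart with TP higher for 2849 and with E2 higher for 3508. Medians of the looked-up members were 1.96 in the efferent duct as against 0.92 in the caput for TP, and -2.07 and -1.96 for E2.

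**Figure D3:**
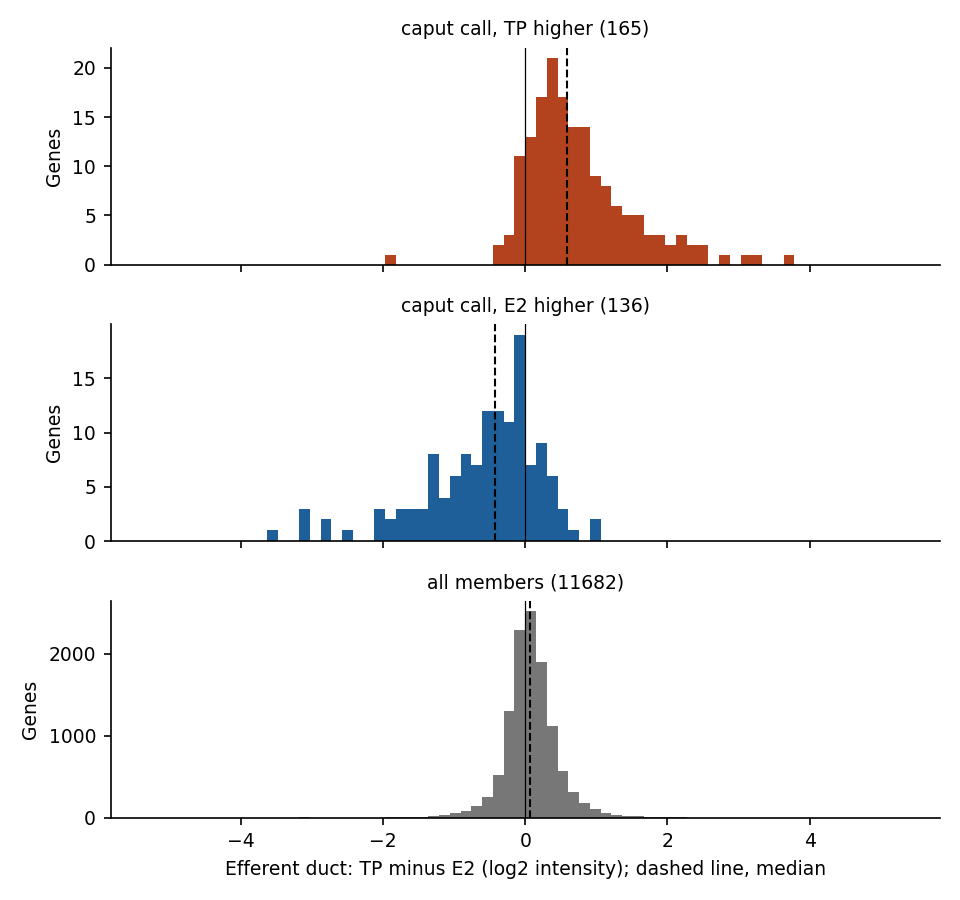
Number of genes by TP minus E2 difference in the efferent duct (log2 intensity) for the 165 members called higher with TP in the caput (top), the 136 called higher with E2 there (middle) and all 11682 members (bottom). Dashed lines are medians, at 0.58, -0.42 and 0.06, and most genes of the top and middle panels lie on the side of zero that the caput call gave.

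Arrays were also counted without a test. TP and E2 arrays stood apart in both tissues in the same direction for 1829 members, beside 13.7% of all genes. They stood apart in opposite directions for 929. Of these, 673 had TP higher in the efferent duct and E2 higher in the caput, beside 4.59% of all genes, and 256 the other way round, beside 2.72%. Beside this stood a small offset between arrays, whose part in these counts was not tested: the median difference of all members was 0.06 in the efferent duct as against -0.04 in the caput, and 0.00 in both after quantile normalization.

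The split members were few, and in each of the 5 the caput carried the larger difference. The gene 1700110K17Rik, left out of the members through its caput TP group and described further below, also passed this test. There the efferent duct carried the larger difference. Hk2, the hexokinase that traps glucose in the cell and is induced by hypoxia, was at 403 and 354 after TP and 409 and 404 after E2 in the efferent duct, but at 739 and 745 after TP and 236 and 266 after E2 in the caput. Its difference was -0.10 in the efferent duct as against 1.57 in the caput, an interaction of -1.67 (95% interval -2.05 to -1.29; adjusted p = 0.042). Cxcl16, a chemokine made as a membrane protein, was at 222 and 199.6 after TP and 235 and 256 after E2 in the efferent duct, and at 75.1 and 74.2 after TP and 277 and 403 after E2 in the caput. It was higher with E2 in both tissues, but by -0.22 and -2.16 (interaction 1.94, 95% interval 1.38 to 2.51; adjusted p = 0.0495). Bid, which carries death receptor signals to mitochondria, was at 258 and 238 after TP and 193 and 215 after E2 in the efferent duct, and at 111 and 103 after TP and 249.6 and 254 after E2 in the caput (interaction 1.51; adjusted p = 0.0495). Myof, a protein of membrane repair and fusion, was at 194 and 186 after TP and 125 and 152 after E2 in the efferent duct, and at 282 and 257 after TP and 529 and 617 after E2 in the caput (interaction 1.55; adjusted p = 0.0495). Med9os, a transcript of the strand opposite Med9, was at 116 and 125 after TP and 62.5 and 83.5 after E2 in the efferent duct, and at 24.7 and 22.5 after TP and 60.5 and 48.4 after E2 in the caput (interaction 1.93; adjusted p = 0.0479). Bid, Myof and Med9os thus had a small difference towards TP in the efferent duct, where none passed, and a larger one towards E2 in the caput, where all 3 passed. The calls were close to the threshold. With any single hormone array left out, 0 or 1 members passed the interaction test, with the differences of these 5 genes keeping their sign.

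Genes just short of the threshold included Cacna1c, the pore of a voltage-gated calcium channel, in which the efferent duct carried the larger difference. It was at 26.5 and 30.5 after TP and 92.0 and 93.1 after E2 in the efferent duct, and at 34.1 and 25.7 after TP and 29.6 and 28.6 after E2 in the caput (interaction -1.72; adjusted p = 0.0813). Ern1, the sensor of unfolded proteins in the endoplasmic reticulum, had differences of -0.27 and 1.37 (interaction adjusted p = 0.0813), and Acly, which makes acetyl-CoA for lipid synthesis, -0.40 and 1.18 (0.11). For Pdzd2, a PDZ domain protein, they were -0.59 and 0.50 (0.115), and for Tent5b, of a family of poly(A) polymerases, 1.29 and -1.27 (0.0538).

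Other members pointed in opposite directions with arrays apart in both tissues, but none of them passed the interaction test. Cftr, the chloride channel of secreting epithelia, was at 102 and 213 after TP and 59.0 and 86.4 after E2 in the efferent duct, and at 88.4 and 78.0 after TP and 253 and 237 after E2 in the caput (interaction 2.60, 95% interval 1.41 to 3.79). The caput difference of -1.56 passed the caput test (adjusted p = 0.0216). H2-DMb2, which loads peptides onto class II molecules in antigen-presenting cells, was at 520.2 and 327 after TP and 123 and 165 after E2 in the efferent duct, and at 77.5 and 65.0 after TP and 222 and 245 after E2 in the caput (interaction 3.25; adjusted p = 0.18). Its close copies in the same region may share probe signal. Spns2, an exporter of sphingosine-1-phosphate, had differences of 1.25 and -1.29, Aif1l 1.12 and -1.22, and Dcdc2b 1.26 and -1.05. In the other direction Alpl, the tissue-nonspecific alkaline phosphatase, was at 123 and 53.2 after TP and 278 and 331 after E2 in the efferent duct, and at 223 and 227 after TP and 103 and 97.4 after E2 in the caput (interaction -3.07; adjusted p = 0.124). Mlxipl, a glucose-responsive transcription factor of lipid synthesis, had -0.98 and 0.98, Pemt, which makes phosphatidylcholine, -0.63 and 1.37, and Smtnl2, Tenm2 and Gm13306 had efferent duct differences of -0.67, -0.67 and -0.73 and caput differences of 0.71, 0.74 and 0.56.

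**Figure D4:**
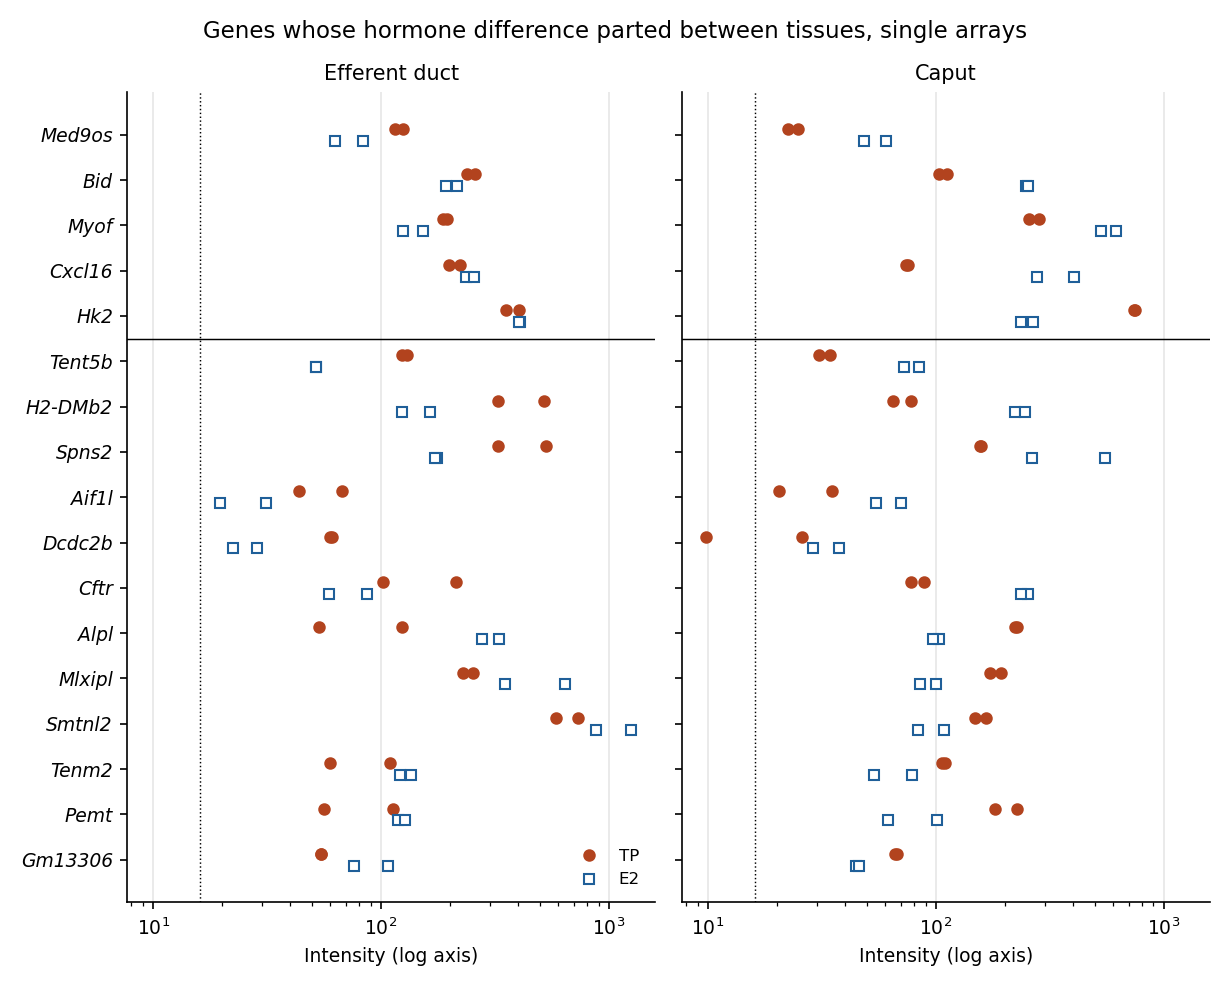
Intensity (log axis) of the 5 members past the interaction test (above the line) and of 12 members whose TP and E2 arrays stood apart in opposite directions (below it), efferent duct left and caput right. Filled circles are TP arrays, open squares E2 arrays, and the dotted line marks 16. For Hk2 the arrays are close together in the efferent duct and far apart in the caput, and for Cftr and Alpl the order of circles and squares turns round between the panels.

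Gene lists were described by their counts and medians beside the medians of all members, 0.06 in the efferent duct as against -0.04 in the caput. Calls in these lists stand beside 1.12% (TP higher) and 1.00% (E2 higher) of all genes in the caput test and 1.63% and 1.42% in the mean test. Genes of endoplasmic reticulum folding and cholesterol synthesis had mostly positive differences in the caput, while their efferent duct medians lay near zero. Of 30 measured genes of endoplasmic reticulum folding, all 30 had a positive difference in the caput and 16 in the efferent duct, with medians of 0.07 and 0.63 (efferent duct first). In the caput 8 of the 30 passed the test, all higher with TP, and 8 passed the test of the mean. The shared ones were Pdia6, Sdf2l1, Manf, Creld2, Herpud1, Sec23b and Sec24d. Creld2, a secreted stress-response chaperone, was at 754 and 689 after TP and 370.0 and 436 after E2 in the efferent duct, and at 2004 and 1979 after TP and 634 and 666 after E2 in the caput. Its differences were 0.84 and 1.62 (adjusted p of the mean 0.000352; interaction adjusted p = 0.229). Manf had 0.59 and 1.32 (0.00105 for the mean), Herpud1, a factor of endoplasmic reticulum degradation, 0.58 and 1.16 (0.00108), Pdia6, a disulfide isomerase, 0.56 and 0.89 (0.00324), and Sdf2l1 1.25 and 1.58 (0.0108). Hspa5, the main chaperone of that compartment, had -0.21 and 0.58 and did not pass (0.525). Of 20 genes of cholesterol synthesis, 19 were positive in the caput and 9 in the efferent duct, with medians of -0.04 and 0.71. Nsdhl, a sterol dehydrogenase, was the only one to pass the caput test (1.30; adjusted p = 0.0183), and its efferent duct difference was 0.17. Leaving out single arrays moved the caput medians of these lists between 0.63 and 0.68 and between 0.59 and 0.67, while the efferent duct median of the second ran between -0.14 and 0.11. With probe sets averaged, the caput median of cholesterol synthesis was 0.39, with 17 of 20 positive.

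Ciliated cell markers had mostly positive differences in the efferent duct and mostly negative ones in the caput, though the difference between tissues was not tested for the list. Of 31 ciliated cell markers, 29 were positive in the efferent duct as against 5 in the caput, with medians of 0.36 and -0.41 (0.14 to 0.55 and -0.60 to -0.17 with single arrays left out). Ccno was the only one to pass a test. Capsl, a calcium-binding protein of ciliated cells, was at 378 and 458 after TP and 290.0 and 365 after E2 in the efferent duct, and at 45.5 and 48.5 after TP and 95.8 and 119 after E2 in the caput (interaction 1.54; adjusted p = 0.29). Summed over all 35 measured markers, intensity was 15009 and 17637 after TP and 12172 and 15439 after E2 in the efferent duct, and 2459 and 3043 after TP and 3194 and 2995 after E2 in the caput, so that the sums overlapped in both tissues. Of 18 fluid and ion transport genes of the duct epithelium, 15 were positive in the efferent duct as against 9 in the caput, with medians of 0.56 and -0.06. Slc26a3, Car14, a carbonic anhydrase at the cell surface, and Slc4a4, a sodium bicarbonate cotransporter, passed the mean test, all higher with TP. Car14 had differences of 0.56 and 1.35 (0.0237) and Slc4a4 of 0.59 and 0.60 (0.0467). Aqp1, the water channel of this epithelium, had 0.29 and -0.30 and did not pass (0.994). Slc9a3, the sodium-hydrogen exchanger of fluid reabsorption, was not a member because its caput E2 mean was below 16. It was at 195 and 444 after TP and 25.1 and 26.9 after E2 in the efferent duct, and its adjusted p of the mean was 0.0428, or 0.0634 to 0.138 without any 1 of 7 of the 8 hormone arrays.

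Of the lists of sex steroid response, these genes passed a test. Of 40 genes of androgen and glucocorticoid response, 23 were positive in the efferent duct as against 24 in the caput, with medians of 0.05 and 0.06, and Fkbp5 and Spcs3, a subunit of the signal peptidase, passed the mean test. Spcs3 had 0.52 and 1.08 (0.00699). In the caput test Fkbp5, Spcs3 and Lman1 were higher with TP and Tmprss2 higher with E2. Of 33 genes of estrogen response in the uterus, 14 were positive in each tissue, with medians of -0.11 and -0.09. Pgr, Vegfa and Oxtr, 3 of the 33, were higher with E2 in the mean test, and Ramp3, a partner of calcitonin-type receptors, was higher with TP (0.26 and 1.96; 0.0364). Vegfa, the vascular growth factor, was at 70.2 and 62.7 after TP and 227 and 193 after E2 in the efferent duct, and at 61.7 and 75.4 after TP and 162 and 182 after E2 in the caput (0.00105). Oxtr, the oxytocin receptor, had -1.89 and -1.15 (0.012). Greb1, an estrogen-induced cofactor, had -0.14 and -1.09 (0.17) and Ltf, the lactoferrin of the estrogen-treated uterus, 1.35 and 0.12 (0.768), so neither passed. Esr1, estrogen receptor alpha, had 0.14 and -0.18 (0.976). Of 12 steroid receptors and cofactors, medians 0.00 and -0.09, Pgrmc1 was higher with TP (0.22 and 0.78; 0.0166) and Pgr higher with E2. Of 7 genes of steroid metabolism, medians 0.04 and 0.02, Hsd17b11, which oxidizes 17-hydroxysteroids, was higher with E2 (-0.86 and -1.11; 0.00366). Caput products have to be read beside the caput marker sum of the first efferent duct TP array, some of whose genes were also bright on sham efferent duct arrays. Of 15 caput and initial segment secreted proteins, medians -0.02 and 0.14, Adam7 and Lcn12 passed the mean test, and the efferent duct median ran between -0.18 and 1.00 with single arrays left out. Of 7 beta-defensins, small antimicrobial peptides, 6 and 7 were positive, with medians of 1.39 and 0.72. Defb1 (1.24; adjusted p = 0.0371) and Defb41 (2.02; 0.0373) passed in the caput and none passed the mean test.

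Angiogenesis and hypoxia genes, 15 members, had medians of -0.30 and -0.55, with 4 positive in each tissue. Vegfa and the stanniocalcins Stc1 (-0.84 and -1.45; 0.0106) and Stc2 (-1.04 and -1.72; 0.0117), secreted hormones of calcium handling, were shared and higher with E2. Hk2, from the same list, was higher with TP in the caput. Of 27 immediate early and cytokine feedback genes, 8 and 6 were positive, with medians of -0.22 and -0.43, and Ier3, an early gene of growth factor and stress signals, was at 333 and 221 after TP and 811 and 841 after E2 in the efferent duct, and at 203 and 194 after TP and 498 and 411 after E2 in the caput (0.00395). Of 20 genes of ERK pathway feedback, medians -0.16 and -0.21, Ier3 and Phlda1 (-0.92 and -1.72; 0.00864) were higher with E2 and Fgfr4, a fibroblast growth factor receptor, higher with TP (2.13 and 1.16; 0.00588). Of 21 genes of apoptosis and regression, medians -0.08 and -0.31, Bid was the split one and Bik passed in the caput (-1.01; 0.0414). Of 24 interferon response genes, 13 were positive in the efferent duct as against 4 in the caput, with medians of 0.02 and -0.47. Irf7, the regulator of type I interferon, was higher with TP in both tissues (1.17 and 0.68; 0.0123), while Ifi47 was higher with E2 in the caput (-1.31; 0.0329).

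Lists of growth and metabolism held few genes past a test. All 11 cell cycle members were positive in the efferent duct as against 8 in the caput, with medians of 0.65 and 0.37. The efferent duct median ran between 0.32 and 0.92 with single arrays left out, and with probe sets averaged it was 0.40, with 9 and 7 positive. Mcm5, part of the replication helicase, was at 98.4 and 145 after TP and 52.2 and 26.8 after E2 in the efferent duct, and at 82.8 and 105 after TP and 68.5 and 58.7 after E2 in the caput (0.0447 for the mean), and the other 10 did not pass. Only 11 of 31 measured cell cycle genes were bright enough to be members. Of 25 genes of pyrimidine and purine synthesis, medians 0.06 and 0.05, Cad and Mthfd2 passed the mean test. Of 28 genes of amino acid transport and tRNA charging, medians 0.08 and 0.22, Wars, which charges tryptophan tRNA, was higher with TP (0.77 and 1.06; 0.0235) and Slc1a5 higher with E2. None of 33 ribosome biogenesis genes passed any test, with medians of -0.16 and -0.01, and none of 30 oxidative phosphorylation genes did, with medians of -0.19 and 0.08 and 3 positive in the efferent duct against 20 in the caput (6 against 14 after quantile normalization and 7 against 15 with probe sets averaged). None of 18 endocytic receptors passed either (medians -0.04 and -0.13), Lrp2, the large receptor of protein uptake, having 0.28 and 0.12.

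Among markers of other cell types, the adipocyte, endothelial, fibroblast and smooth muscle lists had medians below zero in both tissues. Adipocyte markers had medians of -0.32 and -1.36 over 9 members, 0 positive in the efferent duct as against 1 in the caput, and none passed. With the second caput E2 array being the brightest in them, the caput median ran between -1.89 and -0.83 with single arrays left out, and the part of fat cells in the caput calls was not tested. Endothelial markers had medians of -0.41 and -0.43 (13 members), fibroblast and matrix markers -0.03 and -0.21 (24), smooth muscle markers -0.22 and -0.14 (12), and macrophage and antigen presentation markers 0.15 and -0.14 (21). In these 4 lists Lum, a proteoglycan of connective tissue, was the only gene to pass a test, higher with E2 (-0.53 and -1.23; 0.0473 for the mean). Of 6 basal cell markers (medians 0.36 and 0.21), Itga6, an integrin of the basement membrane, was higher with E2 (-0.91 and -0.65; 0.00497). The efferent duct median of the basal list was -0.16 with probe sets averaged and ran between -0.49 and 1.06 with single arrays left out. The lymphocyte and plasma cell (5 members; 0.09 and 0.33), clear and narrow cell (7; 0.12 and 0.23), Leydig and Sertoli cell (5; 0.46 and -0.09) and sperm and germ cell markers (4; 0.82 and -0.94) held no gene past a test. The sperm and germ cell medians ran between -0.62 and 2.25 in the efferent duct and between -1.94 and 0.07 in the caput with single arrays left out. Medians lay on both sides of zero in the same way in the efferent duct for the macrophage, lymphocyte, fibroblast, interferon, immediate early, apoptosis, steroid metabolism, endocytic and nucleotide synthesis lists, and in the caput for the smooth muscle, lymphocyte, Leydig and Sertoli, fluid transport, steroid receptor, steroid metabolism, ribosome biogenesis, nucleotide synthesis and caput secreted protein lists.

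**Figure D5:**
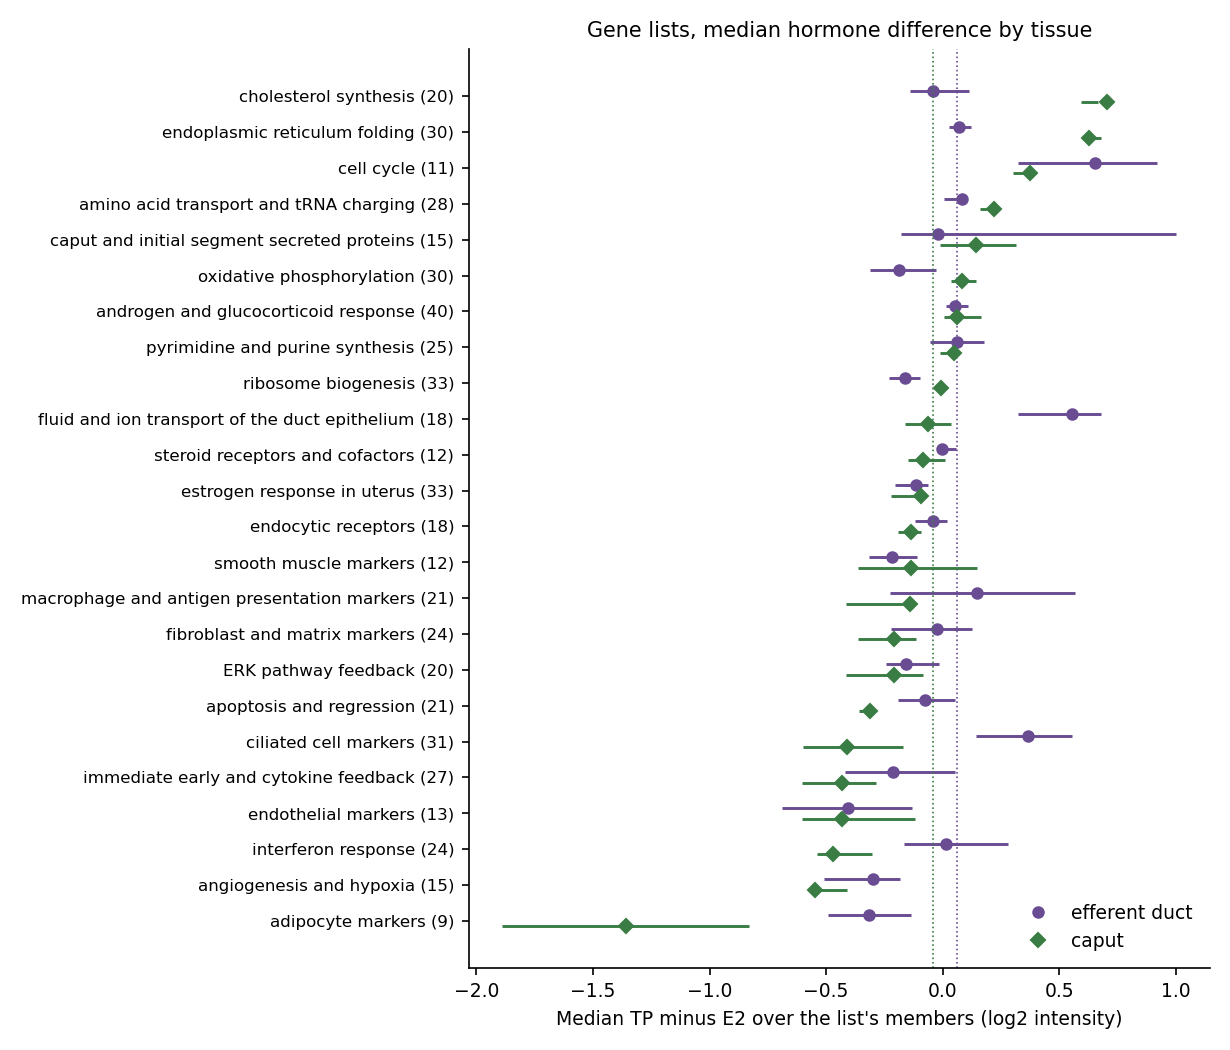
Median TP minus E2 difference (log2 intensity) over the members of the 24 gene lists with the most members, number of members in brackets, circles for the efferent duct and diamonds for the caput. Bars span the medians obtained with single hormone arrays left out, and dotted lines mark the medians of all members (0.06 and -0.04). Cholesterol synthesis and endoplasmic reticulum folding lie near zero in the efferent duct and above 0.6 in the caput, while ciliated cell markers lie on opposite sides of zero.

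Some genes often studied in these tissues did not pass the mean test. Igf1, an insulin-like growth factor, had 0.21 and 0.58 (0.414), Etv5, a transcription factor of the initial segment, -0.17 and -0.58 (0.468), Adra2c, an adrenergic receptor, -0.44 and -0.71 (0.211), Lcn5, a retinoid-binding lipocalin of the caput, 1.99 and 0.85 (0.549), and Gpx5 -0.57 and 0.24 (0.979).

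Membership turned on the dimmest hormone group. The last gene inside was Gsto2, with 16.0001 in its dimmest group, and the first outside Stmn2, with 15.9773. Of the genes left out, 3650 were at or below 16 in all 4 hormone groups and 641 in 1 group alone, 117 of these in efferent duct TP, 133 in efferent duct E2, 277 in caput TP and 114 in caput E2. Some of the genes left out still passed a test. Hpdl, a mitochondrial dioxygenase-like protein, was at 40.1 and 21.3 after TP and 2.88 and 0.346 after E2 in the efferent duct, and at 441 and 412 after TP and 12.6 and 9.75 after E2 in the caput (0.0015 for the mean). Its efferent duct E2 values were below the highest Bacillus control probe set of those arrays (3.14 and 3.97). The size of its difference there, and so of its mean, cannot be read. Upk1a, a protein of the bladder surface, was at 34.8 and 42.9 after TP and 358 and 342 after E2 in the caput (adjusted p = 0.00748 there). Spink10, of the caput secreted protein list, was left out because its efferent duct E2 mean was 12.4. It was at 252 and 138 after TP and 5.37 and 19.5 after E2 in the efferent duct. In the caput it was at 945 and 822 after TP and 133 and 137 after E2 (0.00122 for the mean). Itih2 and 1700110K17Rik, each at or below 16 in 1 group alone, passed the interaction test. So did Brinp2 and 9130001E16Rik, which were at or below 16 in all 4 hormone groups. Itih2, whose protein stabilizes hyaluronan, was at 24.9 and 28.2 after TP and 37.8 and 26.9 after E2 in the efferent duct, and at 24.6 and 20.4 after TP and 2.23 and 1.09 after E2 in the caput (interaction -4.12; adjusted p = 0.0495). Its caput E2 values were below the highest Bacillus control probe set of those arrays (8.48 and 9.20), and with values under 16 set to 16 the interaction was -0.75 and did not pass (adjusted p = 0.304). 1700110K17Rik was at 178 and 233 after TP and 54.2 and 66.2 after E2 in the efferent duct, and at 17.7 and 14.2 after TP and 22.0 and 20.2 after E2 in the caput (interaction 2.18; adjusted p = 0.042).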

How the data were processed

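RNA of 16 samples was measured on 1-colour Affymetrix mouse arrays. Per the labels' protocols, duct and caput RNA were labelled with different kits. The deposited intensity values were linear. Per the submitters' processing notes the authors used RMA, with no version given, but the deposited values were not on a log2 scale: trimmed by 2% at each end, every array had a mean of 125, while quantiles differed. Log2 of the deposited intensity was taken here. Of 45101 probe sets, 34958 had 1 symbol in the platform annotation (13 of them controls, left out), 932 had several and 9211 none. The brightest of several was kept for 9010 genes.

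Differences were fitted with limma 3.58.1 (R 4.3.3), 1 model per tissue of 8 arrays and 4 groups. Mean and interaction came from 1 model of 16 arrays and 8 groups. The Benjamini-Hochberg adjustment ran over 18193 genes, with a threshold of 0.05. The fit was tested on simulated data. Members and lists (31 lists of 783 distinct genes, 686 measured, 539 members) were chosen with earlier results of these data known, so they are no independent evidence.

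Named genes were the 10 shared genes of each direction with the largest smaller difference, members past the interaction test or the 5 of smallest p, up to 6 opposed genes each way, up to 4 per list by smallest p, and 20 fixed genes (19 measured). The genes with opposite signs in the mean test, the last 2 shared genes of the folding list, Ramp3 and all genes in the other observations were chosen after their values were seen.

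Same-numbered replicates of both tissues were checked for pairing: the deviations of replicates correlated at 0.108 (TP), 0.0378 (E2), 0.0205 (castrated) and 0.00339 (sham), and the labels do not say that numbers mark animals, so the main fit had no block. Alternatives were quantile normalization, averaging a gene's probe sets, an intensity trend in limma's variance prior, 1 model for all arrays, the 8 hormone arrays alone, a floor of 16, a membership bound of 64, leaving out the 40% dimmest genes, the replicate block and each hormone array left out. Python 3.11.15 (pandas 2.3.3, matplotlib 3.10.9) made the tables and figures. Sequences are from RefSeq.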

Additional observations from a re-analysis of the deposited data

Results flagged for a closer look

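Limma's interaction test, in which the hormone difference itself is compared between tissues, called 9 genes. Of these, 2 were at or below an intensity of 16 in all 4 hormone groups and are not described further. The interaction (efferent duct minus caput difference, log2) was 1.93 for Med9os, 1.51 for Bid, 1.55 for Myof, 1.94 for Cxcl16 and -1.67 for Hk2, all members. It was -4.12 for Itih2 and 2.18 for 1700110K17Rik, each at or below 16 in 1 caput hormone group. Itih2 was below the highest Bacillus control of the caput E2 arrays, so the size of its interaction cannot be read, and it did not pass with values under 16 set to 16. Adjusted p values lay between 0.042 and 0.0495. All 7 signs of these genes held with any hormone array left out, but 2 calls at most did.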

How the results depend on the processing

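Signs held better than counts. All 403 shared members kept the sign of their mean difference under every alternative that measured them, except 402 with probe sets averaged, where 392 kept their sign in both tissues (402 after quantile normalization). Of the 403, 377 still passed the mean test after quantile normalization, 226 with probe sets averaged, 155 with only the 8 hormone arrays and 209 to 248 with 1 array left out. The bound of 64 moved no count by over 1.5 times. With 2 arrays per group, small differences were not detectable, and the cause of the changes below was not tested.

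In the efferent duct the count of 0 members became 91 in 1 model of 16 arrays, 92 with an intensity trend, 13 with only the 8 hormone arrays, 26 with values under 16 set to 16, and 41 without the 40% dimmest genes. It was 0 with each array left out. The caput count of 301 became 1260 with the trend, 113 with probe sets averaged, 63 with the 8 arrays, 676 with values set to 16, 1133 without the dimmest genes, and 0 to 3 with single arrays left out. The interaction count of 5 became 60, 0, 0, 105, 54 and 0 to 1 under the same alternatives, and 1 after quantile normalization. The mean count of 446 became 794, 289, 182, 799, 846 and 226 to 300. Called in both tissues in the same direction, 0 members became 48 in 1 model, 59 with the trend, 6 with the 8 arrays, 6 with values set to 16 and 29 without the dimmest genes, and in opposite directions 1 with the trend. The correlation of 0.382 became 0.323 with probe sets averaged and 0.315 to 0.383 with single arrays left out (0.315 without the second efferent duct E2 array, 0.32 without its first TP array, 0.33 without the second caput E2 array). With the replicate block, which treats same-numbered arrays as paired although the labels do not, 0 members passed in the efferent duct, 5 in the caput, 0 in the interaction and 31 in the mean test, all 31 among the 403. Of the 25 genes past the mean test that were named as shared or fixed, 10 passed with the block. Genes named from the lists alone were followed under alternatives in the caput test, where they passed it. Their single mean calls were not followed. Over 82 tests of named genes and 1126 values under alternatives, 736 kept direction and call, 361 lost the call, 16 gained one and 13 changed sign without a call.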

Other observations

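Genes around the shared ones, looked up after the values were seen, extended some groups. Near Stat5a on the same chromosome and in the same pathway, Stat5b was also higher with E2 in both tissues, at 221 and 162 after TP and 414 and 468 after E2 in the efferent duct and at 224 and 187 after TP and 447 and 369 after E2 in the caput (adjusted p of the mean 0.00324). Of known STAT5 target genes, the cytokine signal inhibitor Socs2 had differences of -1.37 and -0.87 (0.00418) and the kinase Pim1 -0.57 and -1.10 (0.0207), while Cish, another, had -0.61 and 0.25 and did not pass (0.725). Beside Lrat, the retinol dehydrogenase Rdh10 had -1.01 and -1.34 (0.00204) and the retinal reductase Rdh11 -1.03 and -0.55 (0.0217), all higher with E2. The retinal-oxidizing enzyme Aldh1a1 was higher with TP (0.61 and 0.65; 0.014). Stra6, the receptor for retinol-binding protein, was at 28.2 and 17.5 after TP and 15.6 and 34.6 after E2 in the efferent duct but at 25.6 and 25.9 after TP and 221 and 156 after E2 in the caput. It passed the caput test (adjusted p = 0.0131) and not the interaction test (0.596).

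Some related enzymes ran against each other. Cbs, which makes cystathionine, had differences of -1.49 and -2.89 (0.00527 for the mean), while Cth, which cleaves it, had 1.05 and 0.22 (0.0447). Pgf, a placental growth factor of the Vegfa family, was at 277 and 348 after TP and 81.6 and 115 after E2 in the efferent duct, and at 271 and 229.8 after TP and 88.2 and 75.6 after E2 in the caput (0.0377), the opposite direction to Vegfa. The desaturases of polyunsaturated fatty acids Fads1 (0.98 and 0.84; 0.00707) and Fads2 (0.61 and 1.33; 0.0138) and their relative Fads3 (0.96 and 0.57; 0.049) were higher with TP in both tissues, as were Lman2 (0.54 and 1.75; 0.00211) and Kdelr3 (0.75 and 1.10; 0.0157), which sort cargo in the early secretory pathway. Bcat1, which starts the breakdown of branched-chain amino acids, was at 318 and 414 after TP and 1144 and 1276 after E2 in the efferent duct, and at 16.8 and 22.9 after TP and 237 and 148 after E2 in the caput (0.00204). Mycn, a transcription factor of the Myc family, was also higher with E2 in both tissues (-1.48 and -1.38; 0.0115). Chosen after the values were seen, these examples support no group as a whole.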
